A study of Mus musculus with 2 samples.

Results

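The Mir17 to Mir92-1 cluster is a group of 6 microRNA precursors carried by the long non-coding transcript of Mir17hg: Mir17, Mir18, Mir19a, Mir20a, Mir19b-1 and Mir92-1. The members were chosen by name and by their place in Mir17hg, with no rule on levels but with earlier results of these data known. They are 6 of the 1973 microRNA genes counted. Kidneys of healthy B6NCrl mouse embryos of both sexes were pooled at embryonic day 16.5, and RNA under 30 nucleotides was sequenced in 2 libraries, which the labels call biological replicates. No treatment or engineered allele is named, so the study holds a single group and no contrast between conditions. Replicate 2 came from 41 embryos, the number for replicate 1 is not given in the labels used here, and both carry the same donor record, so the spread between them may be partly technical.

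A microRNA is cut from a hairpin in a longer transcript, loaded as a strand of about 22 nucleotides into Argonaute, and pairs with messenger RNAs mainly through its seed, bases 2 to 8 from the 5′ end. MicroRNAs with the same seed are expected to bind overlapping sets of targets. The Mir17 cluster is activated by Myc and E2F factors, is amplified in some lymphomas, and restrains cell-cycle brakes and pro-apoptotic genes such as Cdkn1a and Bcl2l11. In the developing kidney it is known to be needed in nephron progenitors for their proliferation and for a normal nephron number, and in polycystic kidney disease it promotes cyst growth.

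The 6 guide arms, the strands known to be loaded, fell into 4 seed groups. They are shown because the order of the levels followed these groups. Sequences are those of RefSeq on GRCm38.p6, all on the plus strand of chromosome 14, with the seed in capitals.
miR-17-5p: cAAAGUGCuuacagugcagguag
miR-20a-5p: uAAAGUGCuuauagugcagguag
miR-18a-5p: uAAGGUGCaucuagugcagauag
miR-19a-3p: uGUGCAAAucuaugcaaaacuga
miR-19b-3p: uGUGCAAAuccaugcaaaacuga
miR-92a-3p: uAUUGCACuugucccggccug

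With positions counted from 1 at the 5′ end, miR-17-5p and miR-20a-5p differed at 2 of 23 positions, C1U and C12U, and shared the whole seed. From miR-17-5p to miR-18a-5p there were 6 changes, of which A4G lay in the seed (the others were C1U, U9A, A11C, C12U and G20A). The miR-19 pair differed by 1 change, U11C, outside the seed. The guide arms of Mir17, Mir20a and Mir18 came from the 5′ side of their hairpins, and those of Mir19a, Mir19b-1 and Mir92-1 from the 3′ side.

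On mm10 the host gene Mir17hg occupied chr14:115042879-115046727, 3849 nucleotides in 2 exons, and all 6 precursors lay inside exon 2 (chr14:115043271-115046727). From 5′ to 3′ they were Mir17 (ENSMUSG00000065508) at chr14:115043671-115043754, Mir18 (ENSMUSG00000065403) at chr14:115043851-115043946 and Mir19a (ENSMUSG00000065416) at chr14:115044000-115044081. Then came Mir20a (ENSMUSG00000065442) at chr14:115044157-115044263, Mir19b-1 (ENSMUSG00000076256) at chr14:115044305-115044391 and Mir92-1 (ENSMUSG00000076062) at chr14:115044427-115044506. The 6 hairpins spanned 836 nucleotides, with gaps of 35 to 96 nucleotides. Mir17hg itself has no row in the tables used here, so the level of the shared transcript was not analysed here.

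The microRNA gene rows held 5317669 reads for replicate 1 and 7128703 for replicate 2. Levels are given as counts per 1000000 of these reads (CPM), with the mean ± SD over both libraries (n = 2). A gene row sums the reads of both arms of a hairpin. A share given for a seed is therefore that of the genes with an arm carrying it. It includes reads of their other arms, which in the members have other seeds where they are listed. The tables set reads that mapped to several places, 28.0% and 25.3% of all reads, apart in a row of their own that names no gene, so gene rows are read here as leaving them out. Markers of trunk position and kidney epithelium were high as sums. Mir10a, Mir10b, Mir196a-1 and Mir196b summed to 240607 ± 18746 CPM, and the epithelial miR-200 genes to 26528 ± 343 CPM. Within the first list Mir10a stood at 154681 CPM and Mir196a-1 at only 50.8 CPM. Other lists of kidney cells were also high. The nephron and podocyte list summed to 41682 ± 5199 CPM, and the smooth muscle list to 30811 ± 7345 CPM. Of the latter, Mir143 stood at 30355 CPM and Mir145a at 456 CPM. Endothelial Mir126a stood at 52093 ± 762 CPM. The list of the mature tubule summed to 489 ± 13.1 CPM. Among other tissues, the blood list summed to 749 ± 135 CPM, liver Mir122 to 191 ± 27.6 CPM and the neuron list to 105 ± 18.2 CPM. Nearly all of the neuron sum came from Mir137 (105.1 of 105.2 CPM), so Mir124a-1 was near 0. Mir9-1 of the neuron list, Mir142 of the blood list and Mir1a-2 of the striated muscle list had no row under those names. The striated muscle list summed to 277 ± 14.1 CPM, all from Mir206, with Mir1a-1 and Mir133a-1 at 0. Both of the latter are known to have close copies elsewhere in the genome, so a 0 in a gene row does not show that they are absent. In pooled tissue, more cells with a microRNA and more of it per cell cannot be told apart.

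Together the 6 members held 234358 reads in replicate 1 and 314641 in replicate 2, or 4.41% of the microRNA reads in each. The summed level was 44072 and 44137 CPM, so the libraries were nearly level. All 6 members passed 1 CPM in both libraries, as 387 of the 1973 genes did. None of the members had a read on the opposite strand in either library, which allows up to 3 reads per library, while 2.14% and 2.24% of all reads in gene rows lay on the opposite strand.

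Mir17, the founding member, reached 27523 CPM in the first library and 27115 CPM in the second (mean 27319 ± 289). It ranked 11 among all genes as counted and alone supplied 61.9% ± 0.720 of the cluster's counted reads. Ranks and shares are read here as leaving out reads that mapped to several places. Mir20a, which carries the same seed, was counted at 10470 and 10061 CPM (10265 ± 289) and ranked 21. The guide arms of Mir17 and Mir20a both carry the AAAGUGC seed. Their rows, which hold both arms, thus made up 86.2% of the cluster's counted reads in replicate 1 and 84.2% in replicate 2. Mir17 stood 2.63-fold above Mir20a in replicate 1 and 2.69-fold in replicate 2.

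Mir18, whose guide miR-18a-5p is known to target the matricellular genes Ctgf and Thbs1, was counted at 3161 and 3600 CPM (3381 ± 310). Mir92-1, whose guide miR-92a-3p is known in endothelium for restraining vessel growth, was counted at 2861 and 3291 CPM (3076 ± 303). As counted they lay 1.10-fold and 1.09-fold apart and ranked 42 and 45, and no order is drawn between them, because the guide arm of Mir92-1 has a copy in Mir92-2.

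The miR-19 members, known as the main oncogenic part of the cluster, were the lowest as counted. Mir19a had 239 and 402 reads, 44.9 and 56.4 CPM (50.7 ± 8.09), and Mir19b-1 had 61 and 103 reads, 11.5 and 14.4 CPM (13.0 ± 2.11). The ranks were 207 and 261. The rows of these 2 of the 6 hairpins, whose guide arms carry the GUGCAAA seed, therefore took 0.128% and 0.161% of the cluster's counted reads. The guide arm of Mir19b-1 has a copy in Mir19b-2, so its count is read as leaving out reads that fit both.

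**Figure D1:**
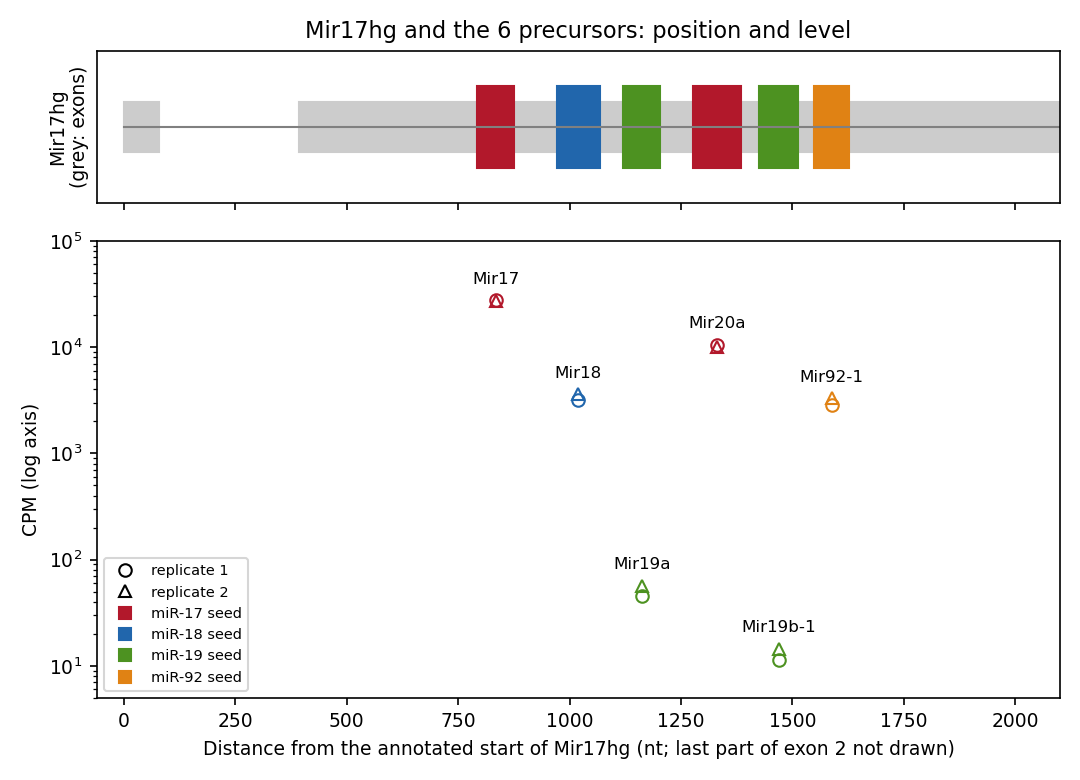
Top, Mir17hg drawn from its annotated start with exons in grey and the 6 precursors coloured by seed; bottom, CPM of each member (log axis) against the same distance in nucleotides, with a circle for replicate 1 and a triangle for replicate 2. Levels as counted do not follow the order along the transcript. Mir17 and Mir20a lie highest at 27319 and 10265 CPM on average. Mir19a and Mir19b-1, on either side of Mir20a, lie lowest at 50.7 and 13.0 CPM. Reads inside the guide arms that Mir19b-1 and Mir92-1 share with X-linked copies are read here as not counted.

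To ask which neighbours in this order differ as counted, folds were taken on log2(CPM + 1) and set against the replicate spread. That spread is the change of a gene between libraries. A preference of the method for some sequences that is the same in both libraries would not show in it. Whether there was such a preference was not tested, so the folds are of counted reads and not of molecules. The pooled replicate SD was 0.22 log2 over the 181 genes averaging 100 CPM or more, so that means of 2 libraries had to lie 1.34-fold apart to exceed the 95% range of that spread. Of the 15 pairs of members, 14 exceeded it, and the exception was Mir18 over Mir92-1 (1.10-fold). Mir17 stood 2.66-fold above Mir20a, and Mir20a 3.04-fold above Mir18. The widest step between neighbours was that from Mir92-1 to Mir19a, 59.8-fold, and Mir19a stood 3.70-fold above Mir19b-1. Mir92-1 and Mir19b-1 have copied guide arms, and reads that fit both copies are read here as left out. Their levels are then lower limits for both arms of the hairpin together. Every fold that sets them below Mir17, Mir18, Mir19a or Mir20a is likewise an upper limit for whole hairpins, and the fold between the pair is uncertain. No limit follows for the guide arms alone. For Mir19a over Mir19b-1 the direction at the level of the mature microRNA is therefore not shown. Of the 6 pairs among Mir17, Mir18, Mir19a and Mir20a, which have no copied arm, all 6 exceeded the spread. Each of the 15 pairs kept its direction in both libraries as counted, but 0.5 is the smallest two-sided p that 2 libraries allow in an exact test, so none is given. The spread was set on more abundant genes than Mir19a and Mir19b-1. Over the 96 genes of 10 to 100 CPM it asked for 1.43-fold, a limit chosen after the data were seen, and the same pair remained the exception.

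Some of these levels cannot be read as levels of the mature microRNA, because guide arms occur in more than 1 precursor. Among the 2202 microRNA precursors of the annotation, exact copies of miR-19b-3p were found in Mir19b-1 and Mir19b-2, and exact copies of miR-92a-3p in Mir92-1 and Mir92-2. The copies lie in the paralogous cluster on the X chromosome. The precursors are shown with the stretch that both copies share in capitals (GRCm38.p6, from RefSeq, plus strand of chromosome 14 and minus strand of chromosome X), since a read that lies wholly inside it fits both.
Mir19b-1, chr14:115044305-115044391: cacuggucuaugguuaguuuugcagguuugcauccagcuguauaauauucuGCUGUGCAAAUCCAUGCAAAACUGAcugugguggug
Mir19b-2, chrX:52741983-52742066: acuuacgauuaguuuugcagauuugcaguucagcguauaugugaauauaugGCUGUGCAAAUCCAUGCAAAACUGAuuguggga
Mir92-1, chr14:115044427-115044506: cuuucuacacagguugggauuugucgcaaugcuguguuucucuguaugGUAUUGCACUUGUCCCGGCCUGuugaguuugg
Mir92-2, chrX:52741838-52741928: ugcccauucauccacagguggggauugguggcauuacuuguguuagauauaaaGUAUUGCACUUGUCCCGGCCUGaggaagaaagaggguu

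The shared stretch was 25 nucleotides long for the miR-19b pair and 22 for the miR-92a pair, and in both it ended exactly with the last base of the guide arm. A read that runs past that base therefore differs between the copies. Reads inside the stretch would fall in the row of reads that mapped to several places, and how many did was not tested. The levels of Mir19b-1 and Mir92-1 are on that reading lower limits for what their guide arms reach in this tissue. Mir17, Mir18, Mir19a and Mir20a had no exact copy of any listed mature arm in another precursor, and their longest stretches shared with another precursor were 13, 17, 13 and 17 nucleotides. These 4 members held 41015 CPM of the cluster's 44104 CPM.

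Mir19a is the member whose low level has no exact copy beside it. Its guide arm was found in 1 precursor when the whole arm or its first 18 bases had to match, and in 3 (with Mir19b-1 and Mir19b-2) when 1 mismatch was allowed. How many reads of miR-19a-3p were set apart as mapping to several places was not tested. Over the 916 measured genes with a listed mature sequence, 293 of 798 without a copied arm (36.7%) and 59 of 118 with one were detected. The median level of the detected genes was 85.8 CPM without and 50.8 CPM with a copied arm. Of the members without a copied arm, Mir17, Mir20a and Mir18 lay above the first of these medians and Mir19a below it. Of those with one, Mir92-1 lay far above the second and Mir19b-1 (13.0 CPM) below it. Whether copied arms set these levels was not tested.

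Each seed of the cluster is also carried elsewhere in the genome, and the share that this cluster supplied differed between seeds. These shares are of gene rows, which hold both arms, grouped by the arm that carries the seed. The AAAGUGC seed was found in 7 measured genes, of which 6 were detected, and the family summed to 53698 and 53989 CPM. Mir17 and Mir20a supplied 70.8% and 68.9% of it in the libraries (exact 95% intervals 70.6 to 70.9 and 68.7 to 69.0). Most of the rest came from Mir93 (9574 ± 266 CPM) and Mir106b (6105 ± 527 CPM), which lie together on chromosome 5. Mir106a (354 ± 11.2 CPM) and Mir20b (225 ± 2.06 CPM) on the X chromosome supplied little, and Mir6383 had no read. Mir20a and Mir93 were 1.07-fold apart, within the replicate spread, while Mir20a stood 1.68-fold above Mir106b.

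The mature arms behind these counts are close in sequence outside the seed too, which is why they are set beside miR-17-5p and miR-20a-5p above.
miR-106a-5p: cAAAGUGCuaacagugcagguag
miR-20b-5p: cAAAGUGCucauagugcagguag
miR-93-5p: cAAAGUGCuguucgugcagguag
miR-106b-5p: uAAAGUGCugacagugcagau

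From miR-17-5p to miR-106a-5p there was a single change, U10A, from miR-20a-5p to miR-20b-5p there were 2, U1C and U10C, and from miR-17-5p to miR-93-5p there were 4, U10G, A11U, C12U and A13C. No full arm of these genes equalled one of the cluster. With a single mismatch allowed, miR-17-5p was also found in Mir106a. Mir17 was counted 76.9-fold above Mir106a, 75.7-fold and 78.0-fold in the libraries.

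The other 3 seeds had fewer sources. The AAGGUGC seed was found in Mir18 and Mir18b alone, and Mir18 supplied 99.6% and 99.4% of its reads. Mir18b stood at 16.8 ± 5.87 CPM, 196-fold below Mir18. The GUGCAAA seed was found in Mir19a, Mir19b-1 and Mir19b-2, and the whole family reached only 59.0 and 77.6 CPM. The cluster supplied 95.5% (exact 95% interval 92.6 to 97.5) and 91.3% (88.7 to 93.5) of it, with Mir19b-2 at 14 and 48 reads. Since miR-19b-3p is the same in Mir19b-1 and Mir19b-2, the family sum is a lower limit for both arms of these hairpins together. The shares hold for counted reads alone.

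The AUUGCAC seed, that of miR-92a, was found in 7 measured genes and 6 were detected. Mir92-1 supplied 70.3% (exact 95% interval 69.7 to 70.9) and 69.5% (69.0 to 70.0) of the family's 4069 and 4737 CPM. Mir25 followed at 609 ± 64.6 CPM, then Mir32 at 210 ± 22.7, Mir363 at 200 ± 22.3, Mir92b at 177 ± 37.8 and Mir92-2 at 130 ± 21.7 CPM. Mir367, a microRNA of pluripotent cells, had no read in either library. Mir92-1 stood 5.04-fold above Mir25 and 23.5-fold above its copy Mir92-2, with 24.7-fold and 22.5-fold in the libraries. Mir92-1 and Mir92-2 carry the same guide arm, so the family sum is a lower limit for both arms of these hairpins together. The shares and folds of this paragraph hold for counted reads alone, and their intervals do not cover reads set apart in mapping.

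The guide arms of these other genes differ from those of the cluster mainly past the seed, as the sequences show.
miR-18b-5p: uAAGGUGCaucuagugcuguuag
miR-25-3p: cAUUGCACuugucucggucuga
miR-32-5p: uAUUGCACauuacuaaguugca
miR-363-3p: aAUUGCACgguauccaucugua
miR-92b-3p: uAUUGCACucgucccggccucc

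From miR-18a-5p to miR-18b-5p there were 2 changes, A18U and A20U. Mir92-1 stood 14.6-fold above Mir32, 15.3-fold above Mir363 and 17.4-fold above Mir92b.

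**Figure D2:**
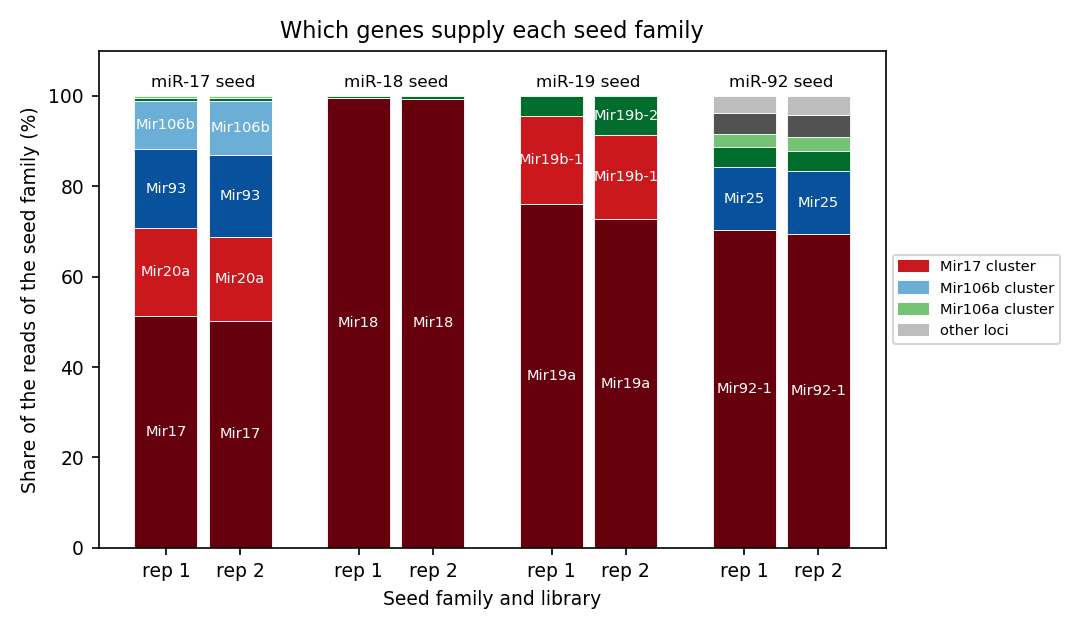
Share of the reads of each seed family (percent, vertical axis) supplied by each gene in replicate 1 and replicate 2, with red shades for the Mir17 cluster, blue for the Mir106b cluster, green for the Mir106a cluster and grey for other loci; shades separate genes. As counted, the Mir17 cluster supplies about 70% of the miR-17 and miR-92 families and over 91% of the miR-18 and miR-19 families. Gene rows hold both arms and are grouped by the arm that carries the seed. Reads inside the arms that Mir92-1 and Mir19b-1 share with X-linked copies are read here as not counted.

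The same seeds were then compared within the paralogous clusters, which arose by duplication. Shares are again of gene rows, which hold both arms. In the X-linked cluster the AAAGUGC members Mir106a and Mir20b held 65.1% and 59.5% of the counted reads, against 86.2% and 84.2% in the Mir17 cluster. As counted, these values did not overlap. They come from the same 2 libraries, and other groups of genes were not compared in this way, so the lack of overlap alone says little. The AUUGCAC members Mir92-2 and Mir363 held 33.2% and 37.6%, against 6.49% and 7.46% for Mir92-1. Mir18b held 1.40% and 2.17%, against 7.17% and 8.16% for Mir18. The GUGCAAA share was the lowest in both clusters as counted, with 0.292% and 0.700% for Mir19b-2. In the cluster of Mir106b, Mir93 and Mir25, which carries no miR-18 or miR-19 hairpin, the AAAGUGC members held 96.4% and 96.1%. The counts of Mir92-1, Mir92-2, Mir19b-1 and Mir19b-2 are read here as leaving out reads inside their shared arms. On that reading these reads are missing from the cluster totals too. All shares of the X-linked and Mir17 clusters, those of AAAGUGC, Mir18 and Mir18b included, therefore hold for counted reads alone. How far each share would move was not tested. No test was run on these differences, for which 2 libraries allow no exact two-sided p under 0.5, and the X-linked shares rest on 4791 and 6862 reads.

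**Figure D3:**
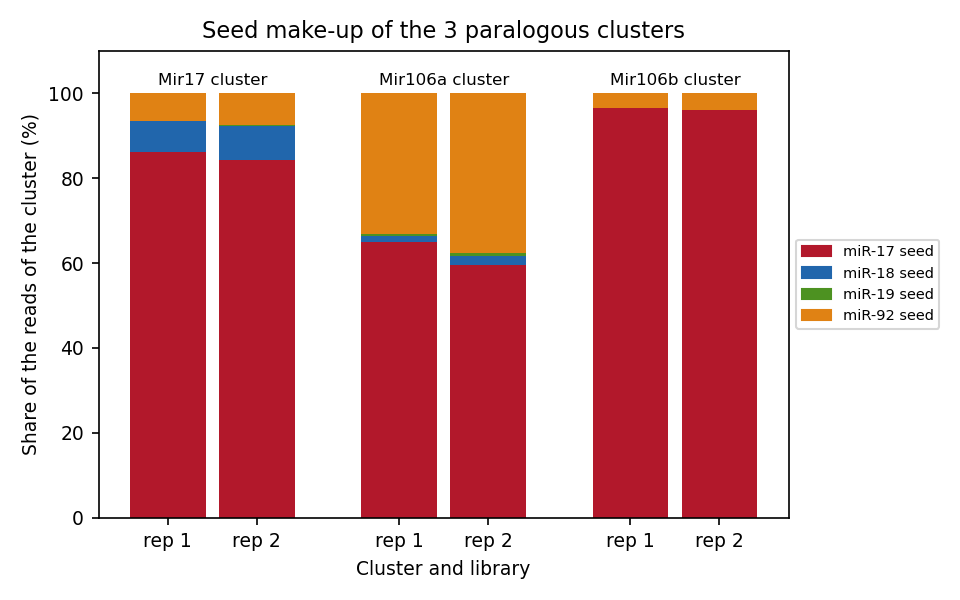
Share of the reads of each cluster (percent, vertical axis) held by members of each seed, in replicate 1 and replicate 2 of the Mir17, Mir106a and Mir106b clusters. As counted, the miR-17 seed leads in each cluster, and the miR-92 seed takes 33.2% and 37.6% of the Mir106a cluster. The miR-19 seed is barely visible in the clusters that carry it. Gene rows hold both arms and are grouped by the arm that carries the seed. Reads inside the arms shared by the copies of miR-19b and miR-92a are read here as not counted.

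The precursors themselves were described from their sequence. They were 80 to 107 nucleotides long, and minimum free energies computed with RNAfold ran from -29.2 kcal/mol for Mir18 to -38.7 kcal/mol for Mir19a. Per nucleotide, Mir18 was the least stable (-0.304 kcal/mol) and Mir19a the most stable (-0.472 kcal/mol), against a median of -0.406 over the 1005 listed hairpins. The other members were Mir17 (-0.437), Mir19b-1 (-0.434), Mir92-1 (-0.425) and Mir20a (-0.361). Guide arms were 21 to 23 nucleotides long, so levels were compared without a correction for length, and their G and C content ran from 34.8% in miR-19a-3p to 57.1% in miR-92a-3p.

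For each member the 2 genes outside the cluster with the most similar levels in both libraries were found by Euclidean distance on log2(CPM + 1). Nearest to Mir17 were Mir26b (28181 ± 604 CPM, distance 0.07) and Mir130a (26604 ± 594 CPM, 0.07). Mir20a lay nearest to Mir93 (distance 0.16), which carries its seed, and to Mir23a (0.29). Nearest to Mir18 were Mir411 (3220 ± 263 CPM, distance 0.10) and Mirlet7b (0.14), and nearest to Mir92-1 were Mir15a (3031 ± 244 CPM, 0.04), a repressor of the cell cycle, and Mir181d (0.08). Mir19a lay beside Mir505 (50.6 ± 4.58 CPM, distance 0.10) and Mir29a (0.20), and Mir19b-1 beside Mir466n (12.7 ± 1.94 CPM, 0.05) and Mir666 (0.10). Likeness here is of level in 2 libraries of a single tissue.

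The libraries were compared with each other to see how steady the members were. This compares 2 pools, not conditions, in an exact binomial test that counts reads only, after TMM scaling and with Benjamini-Hochberg adjustment over 455 genes. Mir17 and Mir20a were lower in replicate 2, at log2 ratios of -0.16 and -0.20 with counting errors of 0.005 and 0.008 (exact binomial test, adjusted p = 5.05e-235 and 1.51e-131). Mir18 (0.04, adjusted p = 0.00719) and Mir92-1 (0.06, adjusted p = 0.000447) were higher in the same exact test. Mir19a (0.18) and Mir19b-1 (0.19) did not pass it, with adjusted p = 0.251 and 0.598. Over all tested genes 33.6% passed, 17.8% lower and 15.8% higher in replicate 2, so that a pass is common at this depth and says little about the members.

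All 6 log2 ratios lay between -0.20 and 0.19, when the median size over the 181 genes of 100 CPM or more was 0.13. With a biological coefficient of variation (BCV) of 0.2 assumed between the pools, none of the 6 members had an adjusted p under 0.05 in the edgeR exact test. Only 0.659% of all tested genes did, so this says little about how steady the members were. Library totals in place of TMM moved every ratio up by 0.14, and no member changed direction.

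Within the cluster the scaling drops out. The share of Mir17 was 62.5% and 61.4% (exact 95% intervals 62.3 to 62.7 and 61.3 to 61.6), and that of Mir20a 23.8% (23.6 to 23.9) and 22.8% (22.7 to 22.9). The share of Mir18 was 7.17% (7.07 to 7.28) and 8.16% (8.06 to 8.25), and that of Mir92-1 6.49% (6.39 to 6.59) and 7.46% (7.36 to 7.55). Relative to Mir17, Mir18 was thus higher in replicate 2 by 0.21 log2 and Mir92-1 by 0.22, while Mir20a moved by -0.04. These intervals cover counting error only, and the shares hold for counted reads alone.

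**Figure D4:**
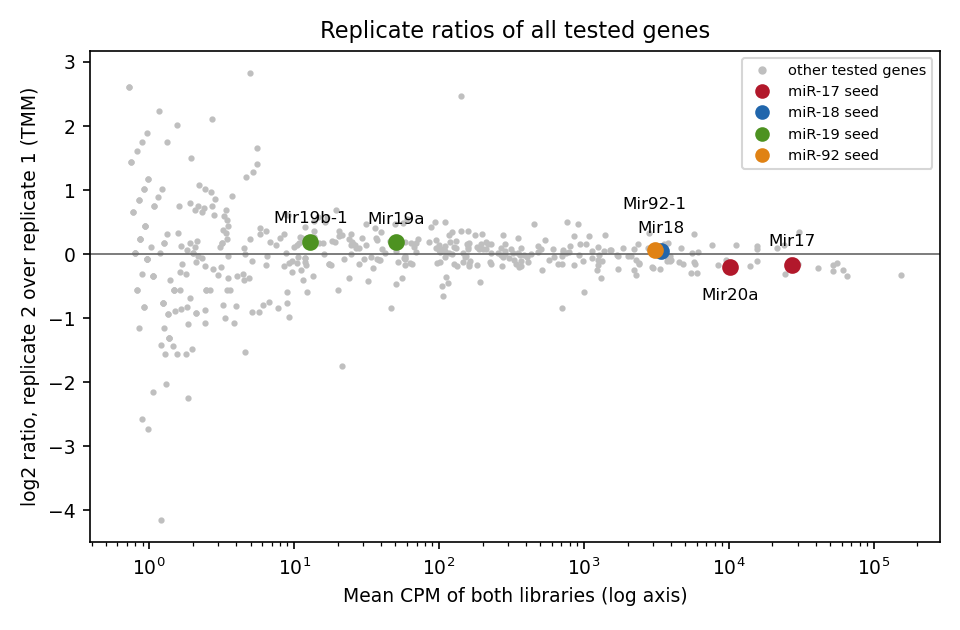
Log2 ratio of replicate 2 over replicate 1 after TMM scaling (vertical axis) against mean CPM (log axis) for the tested genes with reads in both libraries; grey points are other genes and coloured points the members by seed. The members lie between -0.20 and 0.19, with Mir17 and Mir20a below 0 and the other 4 above.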

How the data were processed

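MicroRNA sequencing was done on 2 libraries of pooled embryonic kidney. Each deposited table gives raw read counts for microRNA genes on assembly mm10 with annotation M4, per the text deposited beside them. The aligner, counter and trimming tools are not given here in the sources used. In all 1973 gene rows the first count column is the sum of the other 2, read here as sense and antisense reads. Sense reads were used. Rows naming no gene held 55.2% and 51.5% of the reads and were left out of library sizes.

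Symbols came from GENCODE M21 (GRCm38, the same assembly as mm10), which matched 1894 rows. Sequences came from RefSeq (GRCm38.p6), which matched all 6 members, and both sources gave the same 6 hairpins and coordinates. No genome sequence was used, so copies were sought on both strands of annotated precursors, and exact copies also in annotated transcripts, where no other gene held one.

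CPM is relative to all sense reads on gene rows, so that 3 reads, the limit a count of 0 allows, equal 0.564 and 0.421 CPM. Folds used a pseudocount of 1 CPM. Intervals are Clopper-Pearson at 95% and cover counting error only. Genes with at least 10 reads summed were tested, with TMM factors of 0.952 and 1.05, in R 4.3.3 with edgeR 4.0.16. DESeq2 1.42.0 gave alternative size factors. With 1 library on each side there are no residual degrees of freedom, so the quasi-likelihood fit of edgeR was not possible. The binomial test was run on simulated counts that held counting error only, the noise it assumes. That run therefore does not bear on the spread between real pools. Folding used ViennaRNA 2.7.2. Named genes are the members, the measured genes that share a guide seed, the paralogous clusters and the 2 nearest genes per member. Members and lists were chosen with earlier results of these data known.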

Additional observations from a re-analysis of the deposited data

How the results depend on the processing

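Of 101 alternative values none reversed, and 81 moved by less than the replicate spread or kept their side of the threshold. Of the 81, 32 leave out a library and 11 count either strand, where the members have no opposite read, which leaves 38 under other settings. The summed level of 44104 CPM became 44157 with TMM scaling, 20563 with all reads of the table as denominator, and 41015 with only the members that have no copied arm. All 6 member levels fell by more than the spread with all reads as denominator, by its construction. The fold of Mir92-1 over Mir19a became 55.5 with a pseudocount of 5 CPM, and that of Mir19a over Mir19b-1 became 3.91 with none and 3.09 with 5 CPM. With 1 mismatch allowed, 4 guide arms in place of 2 were found in another precursor. Between libraries, 153 genes passed the binomial test and 3 the edgeR exact test with a BCV of 0.2. Of the 4 members that passed, none did so with that BCV. Mir18 did not pass with DESeq2 size factors (adjusted p = 0.0688, exact binomial test), and Mir19a passed with library totals (adjusted p = 0.0159, exact binomial test). Either library alone lies within the SD of both by construction, so leaving a library out says nothing about stability. It gave summed levels of 44072 and 44137 CPM. No paired analysis was possible because the study has 1 group. Copies were not sought in the genome sequence, which was not used here. Depth limits Mir19b-1 most, at 61 and 103 reads.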

Other observations

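The seed groups can be followed between the libraries over all 17 tested genes that carry a guide seed of the cluster. Of 6 genes with the AAAGUGC seed, 5 were lower in replicate 2 after TMM scaling, from Mir106a (-0.21) and Mir20a (-0.20) to Mir93 (-0.09), with Mir106b at 0.03. Library totals move every ratio up by the same 0.14, which turns Mir93 and Mir20b positive and leaves 3 of 6 lower. All 6 tested genes with the AUUGCAC seed were higher in replicate 2 with TMM, from Mir92-1 (0.06) to Mir92b (0.30). Both genes with the AAGGUGC seed and all 3 with the GUGCAAA seed were also higher, with Mir18b at 0.59 and Mir19b-2 at 1.21, the latter from 14 and 48 reads. Not all of these ratios passed the exact binomial test. It was passed by 5 of 6 AAAGUGC genes (4 lower, 1 higher), 3 of 6 AUUGCAC genes, 2 of 2 AAGGUGC genes and 1 of 3 GUGCAAA genes. Over all tested genes 33.6% passed, 17.8% lower and 15.8% higher. The median log2 ratio over all 455 tested genes was 0.02 with TMM and 0.16 with library totals. Genes of a cluster share a transcript, and this grouping was chosen after the values were seen, so no test is given.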
